A study of Mus musculus with 8 samples.

Results

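In all, 34 genes of fatty acid oxidation, ketone body formation and their PPAR regulators were followed in intestinal stem cells of mice with and without an Ah-Cre transgene. The genes were chosen by name as a pathway list, with earlier results of these data known. Of the 34, 33 had a probe bright enough to be compared, out of 25404 features compared in all, 15114 of them with a gene symbol. The exception was Acads, the short-chain acyl-CoA dehydrogenase, whose 1 probe was well above background on 1 of 8 arrays. The cells were Lgr5-high intestinal stem cells, with 4 samples per group and 1 array per sample. The control group was Irf2fl/fl:Lgr5-EGFP-Ires-CreERT2, and the second group, called Irf2AhcKO in the labels, was Irf2fl/fl:AhCre:Lgr5-EGFP-Ires-CreERT2. Both groups therefore carried floxed Irf2 and the Lgr5 reporter allele, which itself encodes CreERT2, and both had received β-naphthoflavone on 5 consecutive days 1 month earlier. Ah-Cre is a recombinase under a promoter that β-naphthoflavone switches on, so it is not limited to Lgr5 cells. IRF2 is a transcription factor of the interferon response. The comparison asks how the RNA of stem cells differs when Irf2 has been targeted.

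Fatty acids enter mitochondria as carnitine esters and are shortened there in a repeated cycle of dehydrogenation, hydration, dehydrogenation and thiolysis, whose electrons pass through the electron transfer flavoprotein to the respiratory chain. Peroxisomes run a related cycle on other fatty acids, and surplus acetyl-CoA can be turned into ketone bodies. PPARα, PPARδ and PPARγ are nuclear receptors that bind fatty acids and activate many of these genes. In the intestine, fat oxidation and ketone bodies are known as inputs to stem cell function.

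PPARs bind DNA as partners of RXR at direct repeats of a half-site, AGGTCA, with 1 base of any kind between the 2 copies. Start-site windows from RefSeq (GRCm38.p6, 250 bases before to 50 after each start) were found for 31 of the 34 genes and were searched on both strands. That exact repeat was in no window of these genes and in 0.0481% of all genes with a window. The single half-site AGGTCA, which the repeat contains, was in 6 of the 31 genes (Acadm, Acadvl, Cpt1a, Echs1, Plin2 and Pparg) and in 18.1% of all genes. The oestrogen-related receptor element TCAAGGTCA, which contains the half-site, and the interferon regulatory factor core, here 2 copies of GAAA with 2 bases of any kind between them, were in none of the 31, against 0.466% and 3.99% of all genes. The stretches around the half-site are shown for the 3 genes that also appear below among those with an unadjusted p under 0.05. Each is given 5′ to 3′ on the gene's strand, with the half-site in capitals.
Acadvl, chr11:70015460-70015565, minus strand: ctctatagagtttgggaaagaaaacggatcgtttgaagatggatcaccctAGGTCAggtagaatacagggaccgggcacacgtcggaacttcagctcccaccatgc
Echs1, chr7:140116449-140116554, minus strand: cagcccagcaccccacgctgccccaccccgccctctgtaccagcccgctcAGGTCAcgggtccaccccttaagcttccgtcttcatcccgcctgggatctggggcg
Cpt1a, chr19:3323157-3323262, plus strand, half-site on the opposite strand and so read as TGACCT: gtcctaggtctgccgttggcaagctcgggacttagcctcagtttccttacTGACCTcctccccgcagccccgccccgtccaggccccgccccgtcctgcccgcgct
The half-site began 87 bases before the start site in Acadvl, 83 bases before it in Echs1 and 94 bases before it in Cpt1a. A match describes letters in a window and is not a measured binding site. The array grid was annotated on another build, mm9, so no array coordinates are given.

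Between 61.4% and 69.8% of spots were well above background on each array, and no spot was saturated. There is no read depth on arrays, and precision is set by their number. The arrays numbered 1 and 2 in each group shared slide 1 and those numbered 3 and 4 slide 2, so the slide was a term in the test. The names of the scanner data for control replicates 3 and 4 also mention Ah-Cre, which leaves the genotype of those samples unsettled, and slide 1 alone holds none of them. Irf2 itself was not lower in the arrays labelled Irf2AhcKO (log2 difference 0.27, SE 0.12, limma adjusted p = 0.429), and the sources used here do not say where its probe lies relative to the deleted part. Directions are therefore between arrays as labelled. Of all features, 25 passed an adjusted p of 0.05 in limma, and none did with the replicate number as a block. The stem cell marker Lgr5 and the epithelial marker Epcam were well above background on all arrays, while Olfm4 had no named probe. The series text speaks both of 4 independent mice and of 2 biological replicates, so the p-values reflect the spread among arrays, which may be technical. RNA of a sorted population cannot tell fewer cells of a type from less RNA per cell.

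None of the 33 measured genes passed the adjusted threshold, where the background was 0.0984% of all features, 0.0433% lower and 0.0551% higher (limma, Benjamini-Hochberg over all features, smallest adjusted p among the genes 0.205). The differences nevertheless had mostly 1 sign. The log2 signal, set relative to each array's 75th percentile, was lower on average in Irf2AhcKO for 30 of 33 genes, against 50.5% of all features, and higher for 3, against 49.5%. At an unadjusted p under 0.05 there were 11 genes on the lower side and 0 on the higher side, against 5.75% and 5.98% of all features. These 11 were Cpt1a, Crat, Acadvl, Echs1, Hadh, Hadhb, Acaa2, Etfa, Etfb, Ppara and Ppard, 33.3% of the 33. Their differences ran from -0.59 to -0.20, or between 1.15-fold and 1.50-fold in linear signal. In 3 genes (Acadvl, Echs1 and Acaa2) all Irf2AhcKO values lay below all control values, against 2.11% of all features, and in 0 genes above them (1.74%). The median difference was -0.21 over the 33 genes and -0.0024 over all features.

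**Figure D1:**
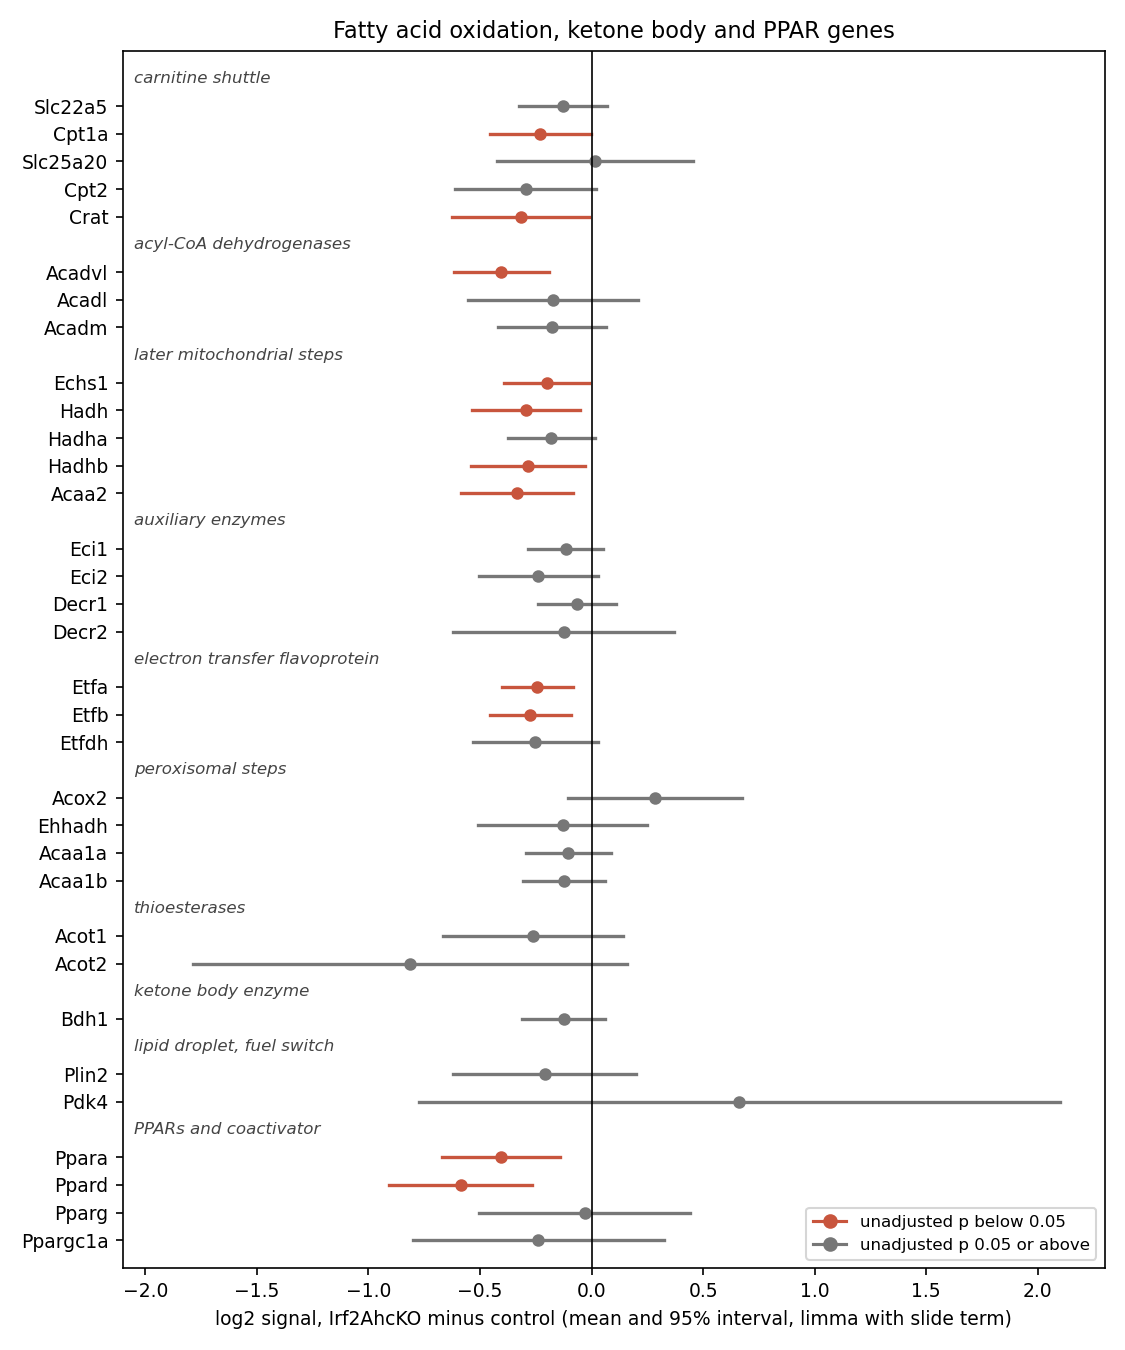
Log2 difference between Irf2AhcKO and control (x axis, 4 arrays per group) for each of the 33 measured genes, grouped by role, with the 95% interval from limma as a line. Coloured points are the 11 genes with an unadjusted p under 0.05, all to the left of 0, while Slc25a20, Acox2 and Pdk4 are the 3 points to the right of it.

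The carnitine shuttle came first. Cpt1a, the outer-membrane carnitine palmitoyltransferase that sets the rate of entry, read 4.10, 4.38, 4.09 and 4.31 on control replicates 1 to 4 and 3.95, 4.11, 3.97 and 3.92 on Irf2AhcKO replicates 1 to 4. The groups overlapped through Irf2AhcKO replicate 2, and the difference was -0.23 (SE 0.10, unadjusted p = 0.0467, adjusted p = 0.423, limma). Crat, which moves acetyl groups between carnitine and CoA, was at -0.47, -0.23, -0.46 and -0.94 in control and -0.86, -0.74, -0.86 and -0.91 in Irf2AhcKO. Control replicate 4 was the lowest of all 8 arrays, and the difference was -0.32 (SE 0.13, adjusted p = 0.420, limma). Cpt2, the inner-membrane partner of Cpt1a, differed by -0.29 and its other probe by -0.50. Neither the carnitine importer Slc22a5 (-0.13) nor the carnitine-acylcarnitine carrier Slc25a20 (0.02) reached an unadjusted p under 0.05.

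Among the acyl-CoA dehydrogenases, which start the cycle, Acadvl acts on very long chains. Its signal was 3.23, 3.51, 3.50 and 3.38 on the control arrays and 3.01, 2.95, 3.10 and 2.94 on the Irf2AhcKO arrays. Every Irf2AhcKO array was below every control array, with a difference of -0.40 (SE 0.09, adjusted p = 0.205, limma), similar on slide 1 (-0.39) and slide 2 (-0.42). Acadm, for medium chains, differed by -0.18. Acadl, for long chains, differed by -0.17, while its signal was 1.14 lower on slide 2 than on slide 1.

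The later steps of the mitochondrial cycle were measured for 5 genes. Of these, 4 were lower at an unadjusted p under 0.05, beside 5.75% of all features. Echs1, the short-chain enoyl-CoA hydratase, read 2.85, 2.71, 2.73 and 2.90 in control and 2.66, 2.63, 2.58 and 2.51 in Irf2AhcKO. Its groups did not overlap although the difference was only -0.20 (SE 0.08, adjusted p = 0.409, limma). Hadh, the short-chain hydroxyacyl-CoA dehydrogenase, was at 0.34, 0.46, 0.15 and 0.24 in control and at -0.02, 0.03, 0.17 and -0.18 in Irf2AhcKO. Irf2AhcKO replicate 3 lay just above control replicate 3, and the difference was -0.29 (SE 0.10, adjusted p = 0.363, limma).

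Hadha and Hadhb encode the subunits of the trifunctional protein and are neighbouring genes on chromosome 5. Hadhb read 3.11, 3.46, 3.21 and 3.17 in control and 2.87, 2.87, 3.12 and 2.94 in Irf2AhcKO, where only replicate 3 reached the control range. The difference was -0.28 for Hadhb (SE 0.11, adjusted p = 0.391, limma) and -0.18 for Hadha. Acaa2, the mitochondrial thiolase of the last step, was at 4.27, 4.42, 4.26 and 4.21 in control and 4.10, 3.78, 4.10 and 3.86 in Irf2AhcKO. The 4 Irf2AhcKO arrays were all lower, with replicates 2 and 4 the lowest, and the difference was -0.33 (SE 0.11, adjusted p = 0.337, limma).

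The auxiliary enzymes that handle double bonds, the isomerases Eci1 (-0.12) and Eci2 (-0.24) and the reductases Decr1 (-0.06) and Decr2 (-0.13), had negative differences, and none reached an unadjusted p under 0.05. The electron transfer flavoprotein, which takes electrons from the dehydrogenases, consists of Etfa and Etfb. Etfa read 5.47, 5.56, 5.24 and 5.21 in control and 5.32, 5.30, 4.93 and 4.96 in Irf2AhcKO. Signals were lower on slide 2 in both groups, and on each slide both Irf2AhcKO arrays were below both control arrays, for a difference of -0.24 (SE 0.07, adjusted p = 0.292, limma). Etfb was at 4.87, 4.73, 4.87 and 4.98 in control and 4.51, 4.46, 4.63 and 4.75 in Irf2AhcKO. Only Irf2AhcKO replicate 4 reached the control range, and the difference was -0.27 (SE 0.08, adjusted p = 0.295, limma). Etfdh, which passes the electrons on to ubiquinone, differed by -0.25 without reaching an unadjusted p under 0.05.

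**Figure D2:**
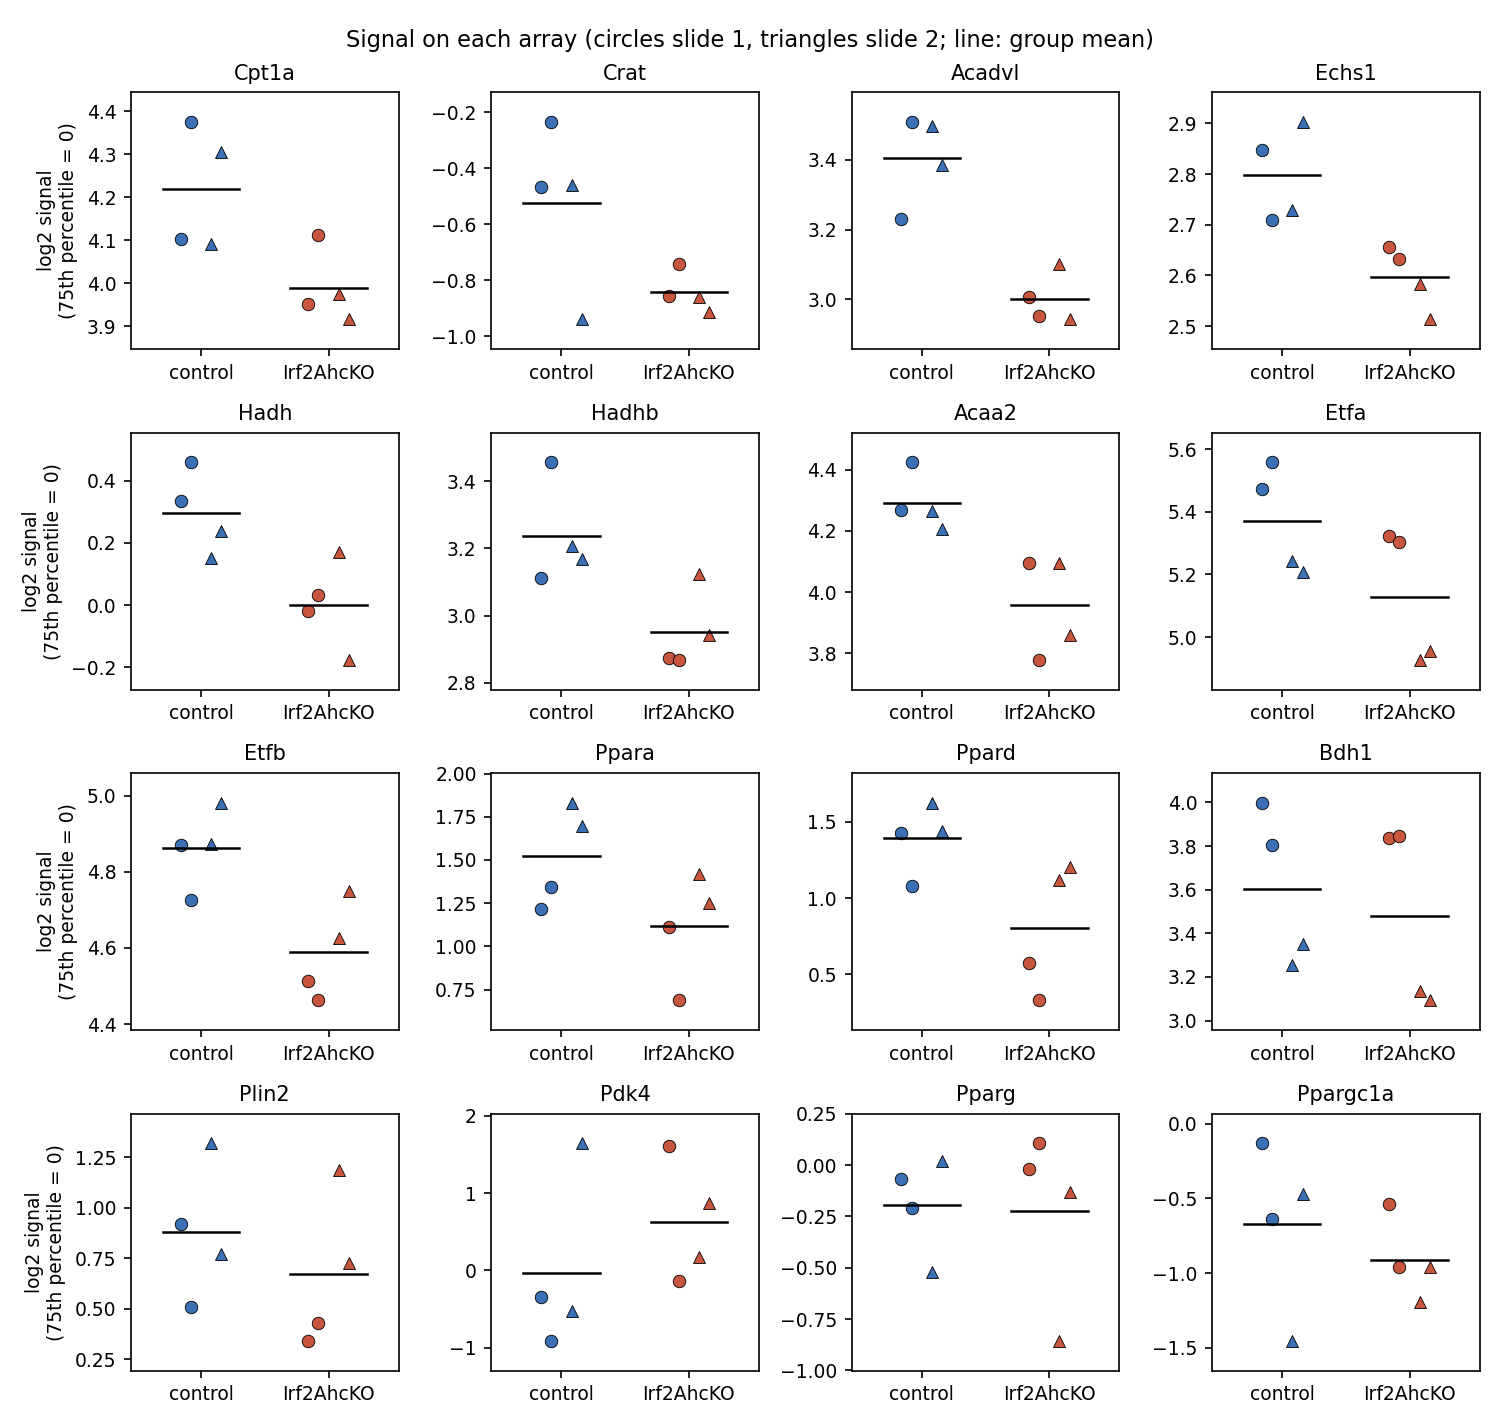
Log2 signal on each array (y axis, 75th percentile of the array at 0, a separate scale for each gene) for the 11 genes with an unadjusted p under 0.05 and for Bdh1, Plin2, Pdk4, Pparg and Ppargc1a. Circles are slide 1, triangles slide 2 and lines the group means of 4 arrays; Acadvl, Echs1 and Acaa2 separate the groups, and Pdk4 has 1 control array at 1.64 while the other controls lie between -0.91 and -0.34.

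Peroxisomal oxidation and the thioesterases gave no gene with an unadjusted p under 0.05. The bifunctional enzyme Ehhadh differed by -0.13 and the thiolases Acaa1a and Acaa1b by -0.10 and -0.12. Acaa1a and Acaa1b are close copies, so their probes may read each other's RNA. Acox2, a branched-chain acyl-CoA oxidase, differed by -0.10 on slide 1 and 0.68 on slide 2, and it was the only one of the 33 whose difference depended on the slide at an unadjusted p under 0.05 (interaction term of limma, adjusted p = 1.00, with 4.29% of all features at that threshold). Acot1 and Acot2, which release fatty acids from CoA, are adjacent close copies on chromosome 12 with the same caution. They differed by -0.26 and -0.81, and Acot2 was well above background on only 3 of 4 control and 2 of 4 Irf2AhcKO arrays. The Acot2 difference was -0.07 with another background correction (normexp), -0.48 without Irf2AhcKO replicate 2 and -1.25 without Irf2AhcKO replicate 1, so its size is not settled.

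The ketone body enzyme of the list was Bdh1, the mitochondrial hydroxybutyrate dehydrogenase. Bdh1 read 4.00, 3.81, 3.25 and 3.35 in control and 3.84, 3.85, 3.14 and 3.09 in Irf2AhcKO. The groups overlapped with a difference of -0.12 (95% interval -0.31 to 0.06), smaller than the difference between slides of -0.66. Its other probes differed by -0.19 and -0.33.

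Plin2 and Pdk4 are common PPAR target genes, the first a lipid droplet coat protein and the second a kinase that turns off pyruvate oxidation. Plin2 was at 0.92, 0.51, 1.32 and 0.77 in control and 0.34, 0.43, 1.19 and 0.73 in Irf2AhcKO, which overlapped (difference -0.21, SE 0.17). Pdk4 read -0.34, -0.91, -0.52 and 1.64 in control and 1.61, -0.14, 0.18 and 0.87 in Irf2AhcKO. The highest array of each group exceeded 1.6, the groups overlapped, and the difference was 1.36 on slide 1 and -0.04 on slide 2. Pooled, it was 0.66 (95% interval -0.77 to 2.10), the widest interval of the list.

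Of the receptors, Ppard had the largest difference among the 11 genes. PPARδ, its product, is broadly expressed in the intestinal epithelium. Ppard read 1.43, 1.08, 1.63 and 1.44 in control and 0.57, 0.33, 1.12 and 1.21 in Irf2AhcKO. Both slide 1 arrays of Irf2AhcKO were below all controls, whereas those of slide 2 lay just above control replicate 2, the lowest control. The difference was -0.59 (SE 0.14, adjusted p = 0.218, limma), -0.80 on slide 1 and -0.37 on slide 2.

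Ppara, the receptor best known for driving fat oxidation in fasting, was at 1.21, 1.34, 1.83 and 1.70 in control and 1.11, 0.69, 1.42 and 1.25 in Irf2AhcKO. On each slide both Irf2AhcKO arrays were below both controls, and the difference was -0.40 (SE 0.11, adjusted p = 0.292, limma). Its 2 other probes differed by -0.44 and -0.60. Pparg, best known from fat cells, read -0.07, -0.21, -0.52 and 0.02 in control and -0.02, 0.11, -0.86 and -0.13 in Irf2AhcKO, an overlap with a difference of -0.03 (95% interval -0.50 to 0.44). The coactivator gene Ppargc1a read -0.13, -0.63, -1.46 and -0.47 in control and -0.54, -0.96, -1.20 and -0.96 in Irf2AhcKO. Control replicate 3 was the lowest of the 8 arrays, and the difference was -0.24 (SE 0.24).

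Genes with more than 1 usable probe allowed a second look at the sign. In all 8 such genes (19 probes, the chosen probe of each gene among them) every probe had a negative difference with both slides together. Of all features, 50.5% did. The sign did not always hold on each slide. A further Etfb probe read -0.25 and -0.18 on control replicates 3 and 4 and -0.16 and -0.10 on Irf2AhcKO replicates 3 and 4. Probes of 1 gene read the same RNA on the same arrays, so they are not independent. The slides gave another view, since each holds both groups. The difference was negative on slide 1 for 30 of 33 genes and on slide 2 for 31, and negative on both for 28, against 31.7% of all features. The 5 genes with opposite signs were Slc25a20, Decr2, Acox2, Pdk4 and Pparg. Medians were -0.21 on slide 1, which leaves out the controls whose data names mention Ah-Cre, and -0.19 on slide 2. Both Irf2AhcKO arrays were below both control arrays for 17 genes on slide 1 (23.3% of all features) and for 18 on slide 2 (17.2%). The slide itself separated 7 of the genes at an adjusted p under 0.05 (Acadl, Acox2, Etfa, Acaa1b and Bdh1 lower on slide 2, Ppara and Ppard higher), against 35.5% of all features.

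**Figure D3:**
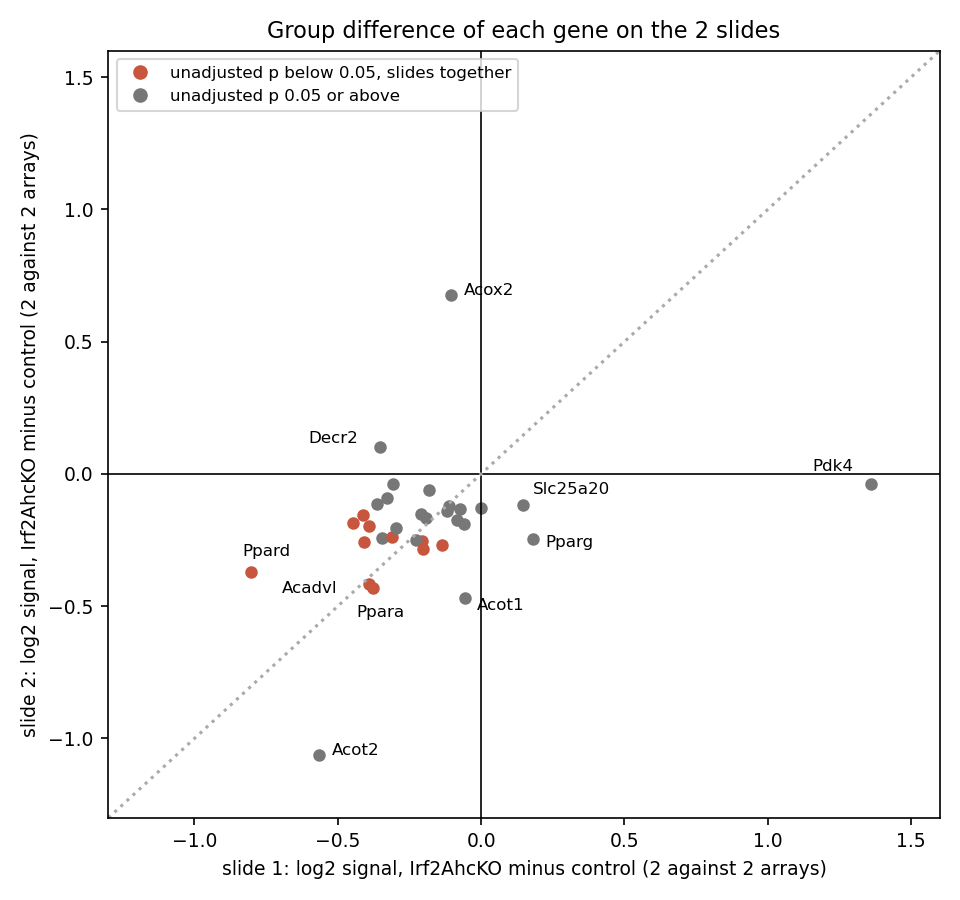
Log2 difference between Irf2AhcKO and control on slide 1 (x axis) and slide 2 (y axis), 2 arrays against 2 on each, for the 33 measured genes. Red points have an unadjusted p under 0.05 with both slides together, and 28 genes lie in the lower left field, with Pdk4 and Acox2 farthest from the dotted line of equal differences.

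Irf2AhcKO replicate 2 stood lowest. Over the 33 genes its mean deviation from its slide's mean was -0.21, with 31 genes below that mean and 22 at the lowest value of the slide. Irf2AhcKO replicates 3 and 4 deviated by -0.09 and -0.11, replicate 1 by 0.02, and the controls by 0.05 to 0.14. The mean signal over the 33 genes was 1.41 to 1.50 on the control arrays and 1.16 to 1.38 on the Irf2AhcKO arrays, which did not overlap. The count of 11 genes, beside 5.75% of all features, was 7 without Irf2AhcKO replicate 2 (4.30% of all features), 7 without control replicate 2 (4.59%) and 6 without Irf2AhcKO replicate 4 (4.50%). It was 3 on slide 1 alone (4.40%) and 5 on slide 2 alone (2.33%), which rest on 4 arrays each, and 6 with no slide term (2.48%).

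Genes around the pathway were counted in lists of their own, none with a member past the adjusted threshold. Of all features, 50.5% had a negative difference, and 5.75% were lower and 5.98% higher at an unadjusted p under 0.05. Of 28 other fatty acid oxidation enzymes measured (of 31), 23 had a negative difference, and 7 were lower and 1 higher at an unadjusted p under 0.05. Among them were Acad11 (-0.37) and Acad12 (-0.43), further acyl-CoA dehydrogenases, and Abcd3 (-0.24), a peroxisomal fatty acid transporter. Uptake and activation had 6 lower and 0 higher of 17 measured, with the fatty acid binding proteins Fabp2 (-0.50) and Fabp1 (-0.59) and the mitochondrial acetyl-CoA synthetase Acss1 (-0.31). The 8 genes of ketone body metabolism were split in sign, with 4 negative and 4 positive differences. At an unadjusted p under 0.05, 3 were lower (37.5%) and 1 was higher, Bdh2 (0.64). The respective list medians were -0.10, -0.11 and 0.01. Array means of the other fatty acid oxidation enzymes were 0.80 to 0.94 in control and 0.65 to 0.78 in Irf2AhcKO, which did not overlap. Those of uptake and activation did overlap (1.66 to 1.95 in control and 1.50 to 1.82 in Irf2AhcKO). So did those of ketone body metabolism (0.35 to 0.52 and 0.32 to 0.58).

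PPAR partners and corepressors had 1 lower and 1 higher of 17 measured, namely Ppargc1b (-0.30), a coactivator related to Ppargc1a, and Lpin2 (0.40), a phosphatidate phosphatase. On the lower side that is 5.88%, near the 5.75% of all features. Other PPAR target genes had 2 lower (8.70%) and 1 higher of 23, with Cyp4b1 (-0.76), Gpd1 (-0.38) and the triglyceride lipase gene Pnpla2 (0.37). Both lists had a median of -0.01, beside -0.21 for the 33 genes. Fatty acid and cholesterol synthesis had 0 of 18 on either side, with Acaca at 0.29 and Fasn at -0.34.

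Other mitochondrial genes also had mostly negative differences, of smaller size. Of all features, 50.5% were negative and 5.75% lower at an unadjusted p under 0.05. In the citrate cycle list 21 of 23 were negative and 4 were lower at an unadjusted p under 0.05, with a median of -0.11 and Pdha1 (-0.29), Suclg2 (-0.23) and Dld (-0.23) among them. Array means of that list were 3.11 to 3.18 in control and 3.00 to 3.07 in Irf2AhcKO. Nuclear-encoded respiratory chain subunits were negative in 23 of 25, with 3 lower (Ndufb5 -0.21, Atp5c1 -0.18 and Cox4i1 -0.17) and a median of -0.12. Their array means, 4.44 to 4.51 in control and 4.30 to 4.42 in Irf2AhcKO, did not overlap either. Glycolysis had 11 of 17 negative and 1 lower (5.88%, near the share of all features), Ldhb (-0.84), with a median of -0.05. Its array means, 2.49 to 2.79 in control and 2.44 to 2.65 in Irf2AhcKO, overlapped. No test compared these lists with one another.

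**Figure D4:**
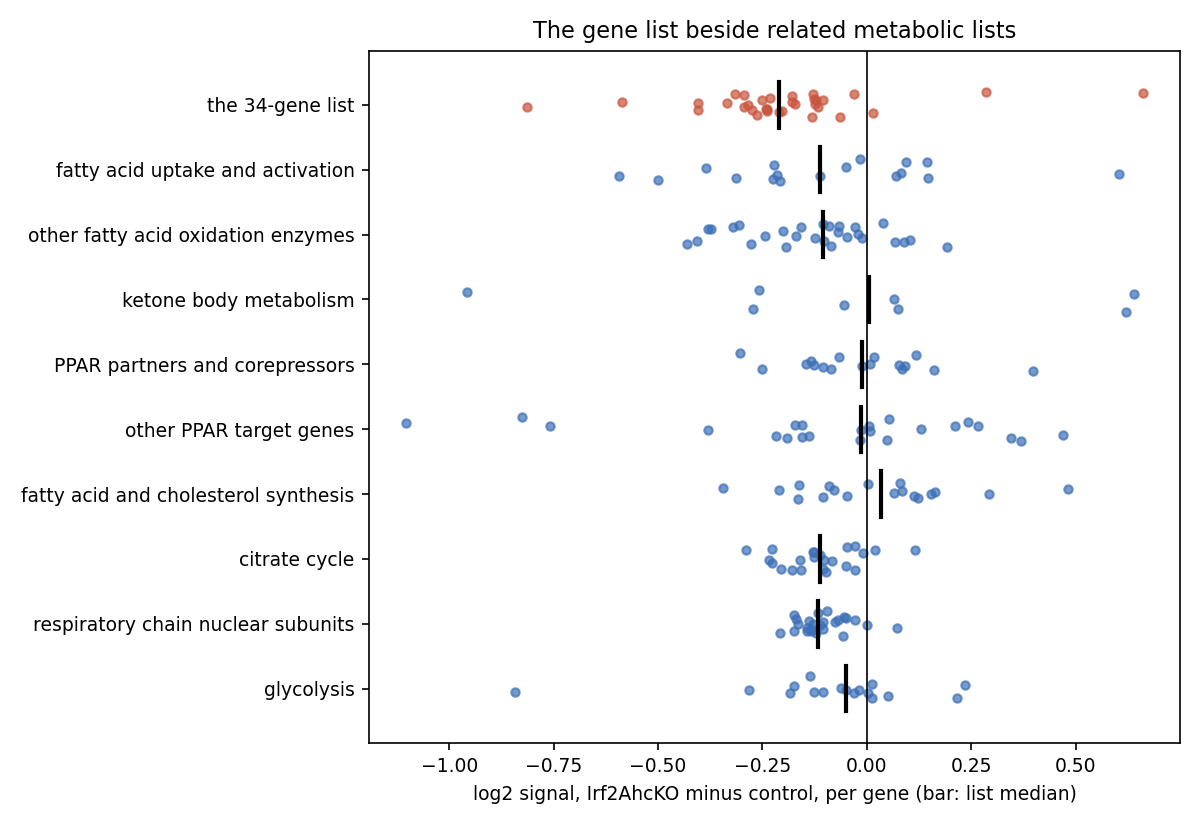
Log2 difference between Irf2AhcKO and control (x axis) for each measured gene of the 34-gene list (top) and of 9 related lists, 4 arrays per group, with a bar at each list's median. The median of the 34-gene list is -0.21, that of the citrate cycle -0.11 and that of fatty acid and cholesterol synthesis 0.03.

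Enterocyte markers were counted in the same way, and none passed the adjusted threshold. Of all features, 50.5% were negative, and 5.75% were lower and 5.98% higher at an unadjusted p under 0.05. Absorptive cells of the villus are known for strong fat handling, and Fabp1 and Fabp2 stand in both the uptake and the enterocyte list. Of 26 enterocyte markers 25 were measured (Slc15a1 was not bright enough), 16 had a negative difference, and 9 were lower and 2 higher at an unadjusted p under 0.05. Fabp2 (-0.50), Rbp2, a retinol binding protein (-0.88), and the brush border protease Mep1a (-0.60) had the smallest p-values. The mean of the 25 was 0.00 to 0.34 on the control arrays and -0.35 to -0.05 on the Irf2AhcKO arrays. Sis, the sucrase-isomaltase gene, reached 10.42 on control replicate 4, where the remaining controls ran from -1.74 to -0.79, and without Sis the means were -0.08 to 0.27 and -0.26 to 0.02, which overlapped. The part of enterocyte RNA in the differences of the 33 genes was not tested. Stem cell markers (14 of 15 measured) had means of 3.21 to 3.44 and 3.17 to 3.40, with 1 lower and 0 higher.

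Markers of further cell types were counted too, beside the same shares of all features (50.5% negative, 5.75% lower and 5.98% higher). Goblet cell markers were negative in 9 of 9 (2 lower), pan-epithelial genes in 7 of 8 (1 lower), and tuft cell markers in 1 of 8 (3 higher). Paneth cell markers had 3 of 6 negative (1 higher), enteroendocrine markers 4 of 10 (2 lower and 2 higher), macrophage and myeloid markers 5 of 9 (1 higher), T and B lymphocyte markers 2 of 10 (2 higher) and mesenchymal and endothelial markers 5 of 7 (1 higher). Adipocyte markers, of interest because fat cells express Pparg and Plin2, had 1 of 4 negative and 0 on either side, with Adipoq, Lep and Cfd not bright enough to be compared. The part of these cells in the differences was not tested.

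**Figure D5:**
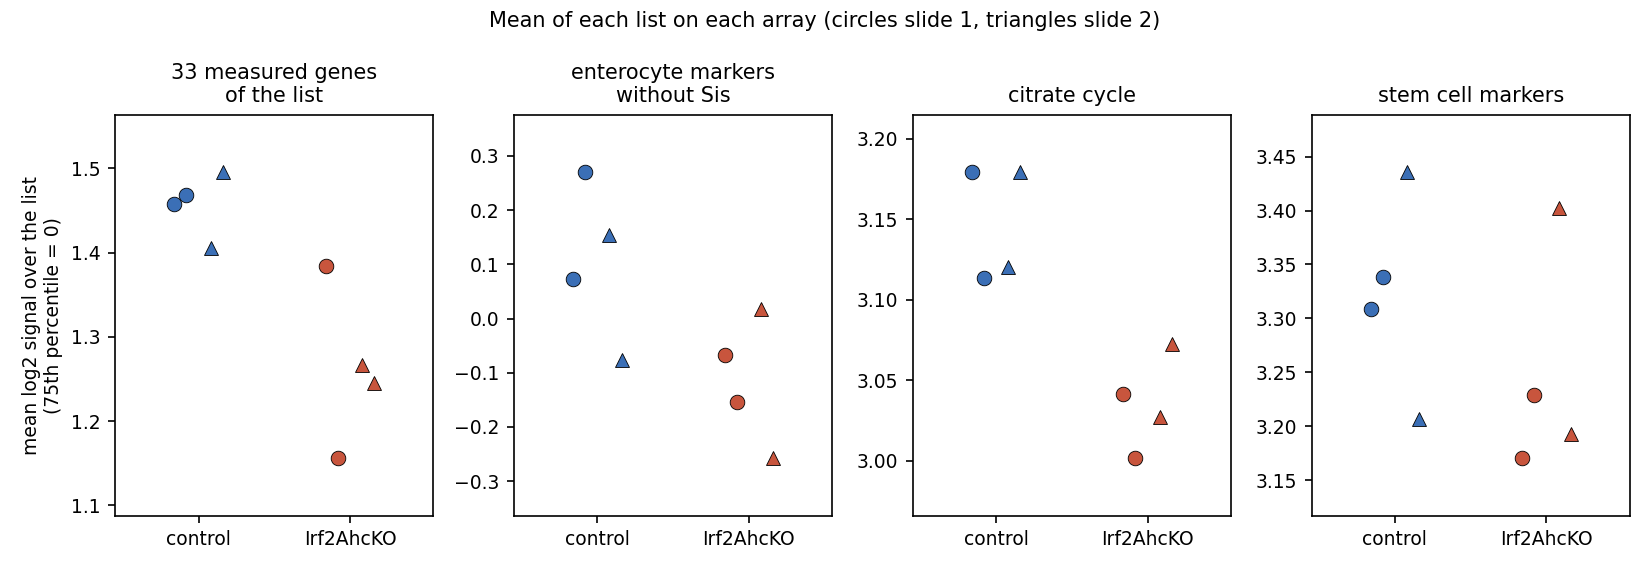
Mean log2 signal on each array (y axis, 75th percentile of the array at 0, a separate scale in each panel) over the 33 measured genes, the enterocyte markers without Sis, the citrate cycle list and the stem cell markers. Circles are slide 1 and triangles slide 2; the groups are apart for the 33 genes (1.41 to 1.50 against 1.16 to 1.38) and the citrate cycle, and overlap for the other panels.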

How the data were processed

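Total RNA of 8 samples was hybridised to 1-colour Agilent arrays. Per the file headers, the deposited intensity (processed signal) came from Agilent Feature Extraction 11.5.1.1, which subtracts background. The authors' deposited series table holds that intensity times 1 constant per array (6.41 to 6.90), on a linear scale, with column medians of 207 to 246; the sources used here do not explain the constant.

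The intensity was put on a log2 scale, less each array's 75th percentile over non-control spots. Replicate spots of each probe were averaged after outlier spots were dropped. Probes well above background on at least 4 of 8 arrays were kept, and the brightest stood for a gene. Accessions named 28331 of 55681 probes through RefSeq (GRCm38.p6). The group difference was fitted by limma 3.58.1 (R 4.3.3, two-sided, slide as a term, Benjamini-Hochberg over 25404 features, threshold 0.05), checked on simulated data. Levels of different probes were not compared. Lists are described by counts and medians, with no set test.

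The genes and lists were chosen with earlier results of these data known. Values per array were given for genes with an unadjusted p under 0.05 and for Bdh1, the PPAR genes, Ppargc1a, Cpt1a, Pdk4 and Plin2, and up to 3 genes per related list were named by smallest p. Single values of some list genes are not reported here, while counts include them. Deviations from the group means correlated across genes between arrays of the same number (r of 0.46 to 0.53). Genes are not independent replicates. Once the slide was removed, r was -0.20 to -0.00. Removing group and slide means from so few arrays makes r negative even without pairing. These values therefore cannot decide whether arrays of the same number were paired beyond the shared slide, which is the term in the test. A replicate block was run as an alternative. The files had no mean signal column, so the normexp alternative (offset 50) used median signals.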

Additional observations from a re-analysis of the deposited data

Results flagged for a closer look

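In 72 groups of 4 arrays, a single array stood far from the other 3 of its group in 2 cases, and chance gives about 1 in 20. Acot2, a mitochondrial acyl-CoA thioesterase, was at -6.11 on Irf2AhcKO replicate 2, with the other Irf2AhcKO arrays between -4.40 and -4.17 and the probe well above background on 2 of those 4 arrays. Sis, the enterocyte marker, was at 10.42 on control replicate 4, with the other controls between -1.74 and -0.79.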

How the results depend on the processing

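No gene of the list passed the adjusted threshold under any of the 20 alternatives, and none of the 11 genes with an unadjusted p under 0.05 changed sign. The features passing (25) were 133 with normexp, 7 with no filter on dim probes, 46 with probes well above background on all 8 arrays, 0 on slide 1 or slide 2 alone, 0 with the replicate block, 1 without both arrays numbered 4 and 0 to 25 when 1 array was left out. The 11 genes lower at an unadjusted p under 0.05 (5.75% of all features) were 7 with the authors' series table (4.53%). They were 6 with no slide term (2.48%), 3 on slide 1 (4.40%) and 5 on slide 2 (2.33%). Without both arrays numbered 4 they were 6 (5.25%). When 1 array was left out they were 6 to 12, beside 4.03% to 7.1% of all features. Genes higher (0, beside 5.98% of all features) were 1 on slide 2 (2.94%). They were 0 to 1 when 1 array was left out (4.46% to 9.03%). Genes whose groups did not overlap numbered 3, beside 3.85% of all features. They were 19 on slide 1, where 23.3% of all features were apart on the lower and 22.5% on the higher side. On slide 2 they were 19 (17.2% and 16.2%). They were 5 with the array median, 7 without both arrays numbered 4 and 4 to 7 when 1 array was left out. The share of all features is not given for those settings, so these counts are not read as a result about the genes. Fewer arrays make separation easier. The array median keeps all 8 arrays, but with it 56.1% of all features were negative, with a median of -0.03. The median (-0.21) was -0.23 to -0.18 when 1 array was left out. The replicate block gave 14 lower genes, beside 6.35% of all features, and changed no call at the adjusted threshold within the list. Ppard had an unadjusted p under 0.05 in 20 of 20 alternatives, Acadvl in 19, Etfb and Ppara in 18, Etfa and Acaa2 in 17, Hadh in 14, Hadhb in 11, Crat in 8, Cpt1a in 7 and Echs1 in 5. The sign differed under at least 1 alternative for Slc25a20, Decr2, Acox2, Pdk4 and Pparg. The cause of these shifts was not tested. Under other scalings the median of all features lay between -0.03 and 0.03. The arrays number 4 per group, and Acot2, near background, has the least certain values.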
